A study of Arabidopsis thaliana with 12 samples.

Results

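CCL, XERICO, FZL, AT4G39760 and AT5G27560 are 5 nuclear genes of Arabidopsis thaliana that each had 1 array probe annotated to it alone, out of 691 genes with such a probe. They were taken from the genes whose intensity was higher in PSII light than in PSI light at every sample number, so the difference between the light regimes chose them and is described here without a test. Of the 692 probes annotated to a single gene, 201 (29%) were higher in this way at all 6 numbers, and these 5 are a choice among them. Wild-type plants of the C24 ecotype had been raised in PSII light, which is specific for photosystem II (6 samples), or in PSI light, which is specific for photosystem I (6 samples), and their total RNA was measured by array. The labels give no wavelength, age, organ or time of harvest, and with 2 regimes the photosystem that was favoured and other properties of the light cannot be told apart.

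The photosystems work in series in the thylakoid membrane of the chloroplast, and light absorbed mainly by photosystem II or mainly by photosystem I shifts the redox state of the electron carriers between them. Such light also differs in its red and far-red content, to which the phytochrome photoreceptors respond. CCL (CCR-like, AT3G26740) encodes a transcript that cycles with the circadian clock and is known for its short lifetime in the cell. XERICO (AT2G04240) encodes a small RING-H2 zinc-finger protein whose overexpression raises the level of abscisic acid, the hormone of drought and seed dormancy, and the gene is repressed by gibberellin. FZL (FZO-like, AT1G03160) encodes a membrane-remodelling protein of the dynamin family in the chloroplast that helps to shape thylakoids and grana stacks. AT4G39760 is described as an F-box protein with kelch repeats; F-box proteins choose the substrates of SCF ubiquitin ligases. AT5G27560 is named by its locus alone.

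Within each regime the samples numbered 1 and 2, 3 and 4, and 5 and 6 deviated together across all probes, and each such pair was averaged as a repeat measurement, giving replicates 1, 2 and 3. This pairing into repeats is inferred from the values, as no label mentions it. Nor do the labels say that replicates came from separate plants, so the spread between them may be technical. Intensities are in arbitrary units as deposited, and the number of arrays limits their precision. Summed intensity lay between 3643 and 3768 per sample over 3439 probes. The measured markers of green leaf cells were all above 0. Mean intensity was 19.6 in PSII light and 16.6 in PSI light for PSBW, 3.06 in PSII light and 2.86 in PSI light for PSAN, and 0.869 in PSII light and 0.625 in PSI light for PRK. None of the 9 root, seed and pollen markers had a probe of its own, so these tissues were not analysed here. In bulk samples, fewer cells of a type and less RNA per cell cannot be told apart.

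CCL was the brightest of the 5 probes and was 1.49 times as bright in PSII light. Its intensity in PSII light was 7.85, 6.89, 7.56, 7.25, 9.29 and 9.07 in samples 1 to 6, against 5.31, 4.99, 6.36, 6.07, 5.02 and 4.48 in PSI light. The lowest PSII-light sample, 6.89, lay above the highest PSI-light sample, 6.36, so the regimes did not overlap. Replicate 3 stood out in PSII light as the high one, while replicate 2 was the high one in PSI light. The mean was 7.99 ± 1.03 in PSII light and 5.37 ± 0.757 in PSI light (SD, n = 3 each). On the log2 scale, after a pseudocount of 0.193 and quantile normalization, the difference was 0.54 ± 0.13 (PSII light minus PSI light; SE from limma).

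XERICO was 1.29 times as bright in PSII light, the smallest ratio among the 5. It had intensities of 2.61, 2.45, 2.70, 2.85, 3.11 and 2.93 in PSII-light samples 1 to 6, against 1.96, 2.04, 2.63, 2.42, 1.96 and 1.89 in PSI light. Here single samples overlapped: PSI-light sample 3, at 2.63, exceeded PSII-light samples 1 and 2. After averaging of repeats the regimes no longer overlapped, with means of 2.77 ± 0.244 in PSII light and 2.15 ± 0.327 in PSI light (SD, n = 3 each). The log2 difference was 0.38 ± 0.10 (SE). XERICO also came closest to failing the rule, with a ratio of 1.03 at sample number 3. Just outside the rule, AT1G70200 was higher at 5 of 6 numbers and just below equality at sample number 5, and its log2 difference was 0.02 ± 0.12 (SE).

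FZL was 1.40 times as bright in PSII light. Its PSII-light samples 1 to 6 read 1.29, 1.31, 1.46, 1.39, 1.43 and 1.75, against 0.940, 0.888, 1.23, 1.24, 0.873 and 0.989 in PSI light. The regimes were separated by a narrow margin of 0.0458 between PSII-light sample 1 and PSI-light sample 4. PSII-light sample 6 lay well above its repeat, sample 5, and raised the mean of replicate 3. The mean intensity was 1.44 ± 0.146 in PSII light and 1.03 ± 0.183 in PSI light (SD, n = 3 each), and the log2 difference was 0.41 ± 0.13 (SE).

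The F-box gene AT4G39760 had the largest ratio of the 5, 1.81. In PSII light samples 1 to 6 read 4.30, 4.23, 3.78, 3.72, 4.28 and 4.18, against 1.88, 2.05, 2.80, 2.58, 2.10 and 2.13 in PSI light. The regimes were far apart, with 0.913 intensity units between the lowest PSII-light and the highest PSI-light sample. Replicate 2 was the lowest of the PSII-light replicates and the highest of the PSI-light replicates. The log2 difference of 0.84 ± 0.12 (SE) was the largest of all 692 single-gene probes, and it rested on intensity means of 4.08 ± 0.288 in PSII light and 2.26 ± 0.384 in PSI light (SD, n = 3 each).

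AT5G27560 was the dimmest of the 5 and was 1.55 times as bright in PSII light. Its intensities were 0.733, 0.676, 0.605, 0.579, 0.661 and 0.725 in PSII-light samples 1 to 6, against 0.439, 0.448, 0.403, 0.443, 0.445 and 0.393 in PSI light. No sample of one regime reached the other, and the PSI-light samples lay close together. The mean was 0.663 ± 0.0619 in PSII light and 0.429 ± 0.0133 in PSI light (SD, n = 3 each), a coefficient of variation of 9.34% in PSII light and 3.11% in PSI light. The log2 difference, 0.39 ± 0.06 (SE), is reduced by the pseudocount of 0.193, which is large beside an intensity of this size. Quantile normalization lowered it too, as it was 0.46 with the same pseudocount on values as deposited. By its intensity ratio AT5G27560 came after AT4G39760 alone, and by its log2 difference it also came after CCL and FZL.

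**Figure D1:**
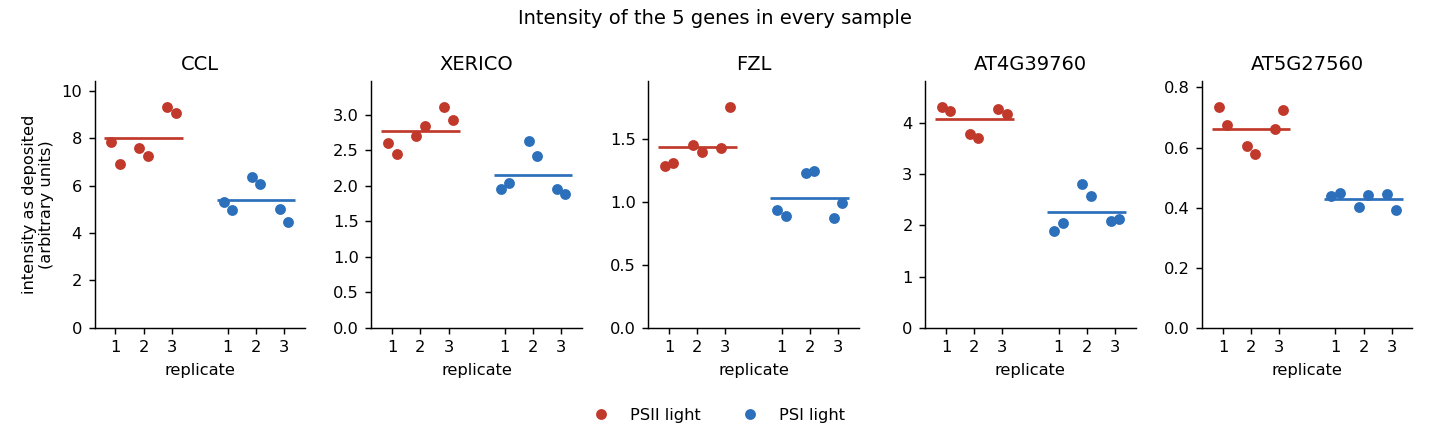
Intensity as deposited (arbitrary units, each axis starting at 0) of the 5 genes in all 12 samples, PSII light in red and PSI light in blue, with the repeat measurements of a replicate side by side and a line at the mean of the 3 replicates. XERICO is the gene whose samples overlap between regimes, PSI-light replicate 2 is high in CCL, XERICO, FZL and AT4G39760, and 1 FZL sample in PSII light stands at 1.75.

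For 4 of the 5 genes, all but XERICO, every PSII-light sample lay above every PSI-light sample. This was so for 322 of the 3439 probes (9.36%). By the 3 replicate means all 5 genes were separated, as were 20.9% of all probes, and all 5 were higher at all 6 numbers, which the rule fixed, as were 27.1% of all probes. In the limma fit over all probes, AT4G39760 and AT5G27560 were among the 26 called higher in PSII light at an adjusted p under 0.05 (0.756% of probes), and CCL, XERICO and FZL were not. Since the genes were chosen on this contrast, these counts describe them and support nothing further. When the replicate number was fitted as a block the count was 1, AT5G27560. Without PSI-light replicate 2 it was 2, then XERICO and AT4G39760, and without any other replicate it was 0.

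The size of the difference was uneven between replicate numbers, and replicate 2 gave the smallest one in all 5 genes. CCL differed by 0.46, 0.25 and 0.91 on the log2 scale at replicates 1, 2 and 3 (PSII light minus PSI light). XERICO differed by 0.39, 0.14 and 0.60, and FZL by 0.42, 0.20 and 0.60. AT5G27560 had 0.408, 0.352 and 0.410, so that in these 4 genes replicate 3 was the largest, by very little in AT5G27560. AT4G39760 had 1.11, 0.47 and 0.95, with replicate 1 the largest. Among the 970 probes with a positive difference at all 3 numbers, replicate 2 was the smallest in 40.6%, replicate 1 in 34.3% and replicate 3 in 25.1%. Over all probes the spread of the difference was also lowest at replicate 2, with an SD of 0.26, 0.23 and 0.28 on the log2 scale for replicates 1, 2 and 3.

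**Figure D2:**
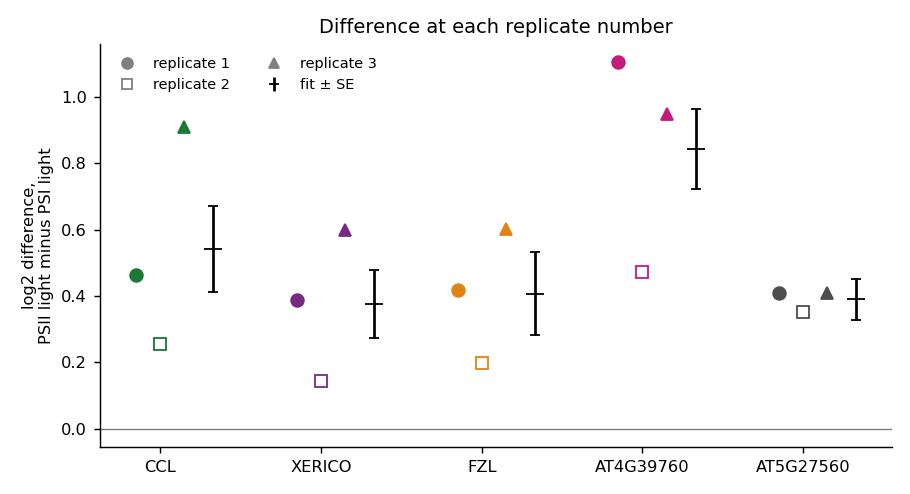
Log2 difference (PSII light minus PSI light) of each gene at replicates 1 (circle), 2 (open square) and 3 (triangle), with the fitted difference and its standard error in black. Replicate 2 is the smallest in every gene, from 0.14 in XERICO to 0.47 in AT4G39760, and AT5G27560 has the narrowest spread.

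Both regimes took part in this unevenness, though not alike in each gene. In PSI light, replicate 2 was the highest for CCL, XERICO, FZL and AT4G39760, by 0.19, 0.19, 0.23 and 0.21 above the group mean on the log2 scale. For AT5G27560 it was the lowest, at -0.04. Over the 3289 probes that were never at 0, PSI-light replicate 2 was the highest in 37.5%. In PSII light, replicate 3 was the highest for CCL (0.18), XERICO (0.12), FZL (0.13) and AT5G27560 (0.05), while AT4G39760 was highest in replicate 1 (0.09). Over all probes never at 0, PSII-light replicate 3 was the highest in 31.8%. PSII-light replicate 2 lay below the group mean for CCL (-0.09), XERICO (-0.05), AT4G39760 (-0.16) and AT5G27560 (-0.08), and above it for FZL (0.02).

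**Figure D3:**
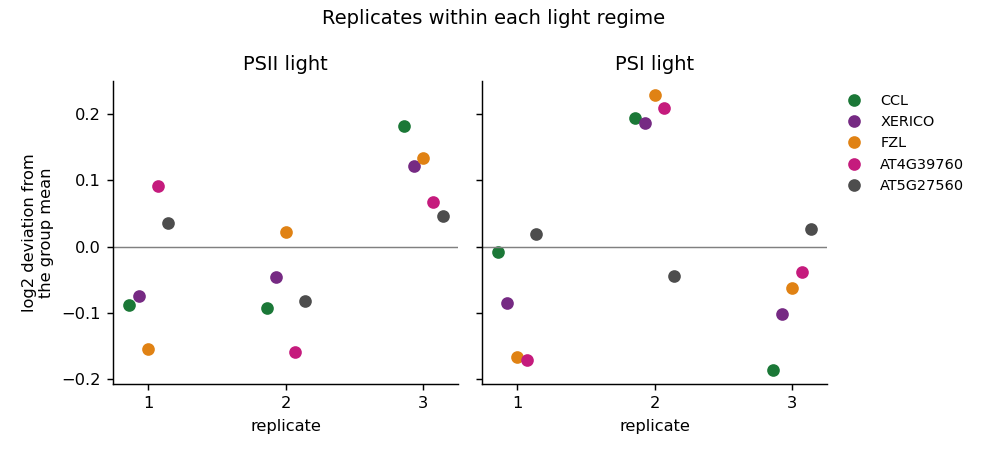
Log2 deviation of each replicate from the mean of its light regime, PSII light on the left and PSI light on the right, 1 point per gene. In PSI light 4 genes sit near 0.2 at replicate 2 and AT5G27560 sits just below 0.

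CCL and XERICO, the clock-linked and the abscisic-acid-linked gene, followed each other most closely. Their deviations from the regime means correlated at a Pearson r of 0.90 over the 12 samples, a measure from which the difference between regimes is removed. XERICO correlated at 0.73 with FZL and at 0.71 with AT4G39760, and CCL at 0.60 with FZL and at 0.55 with AT4G39760. AT5G27560 stood apart from the other genes, at 0.08 with CCL, 0.07 with AT4G39760, -0.12 with XERICO and -0.23 with FZL. The 12 samples were taken as 6 replicates measured in pairs, and all genes share the same arrays and their normalization. Over all pairs of 648 other single-gene probes the median r was 0.00, with 5th and 95th percentiles of -0.66 and 0.67. An r within that range was thus ordinary for a pair of probes. The values of 0.90, 0.73 and 0.71 lay above it, and they were not tested.

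Repeat measurements of these genes differed about as much as those of other probes. The median absolute log2 difference between repeats was 0.07 for CCL, 0.07 for XERICO, 0.06 for FZL, 0.06 for AT4G39760 and 0.09 for AT5G27560, against 0.06 for the median probe never at 0. The largest single gap between repeats was 0.26, in FZL at PSII-light replicate 3. For the other 4 genes no pair of repeats differed by more than 0.13.

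The probes covered a wide range of brightness, which describes the spots and not the transcript levels of different genes. CCL was brighter than 98.4% of single-gene probes, AT4G39760 than 97.4%, XERICO than 96.4% and FZL than 86.0%. AT5G27560 was brighter than 41.8% and lay in the crowded middle of the array. By log2 difference they ranked 1 (AT4G39760), 5 (CCL), 15 (FZL), 16 (AT5G27560) and 20 (XERICO) among the 692, a ranking that the choice of the genes fixed in part.

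**Figure D4:**
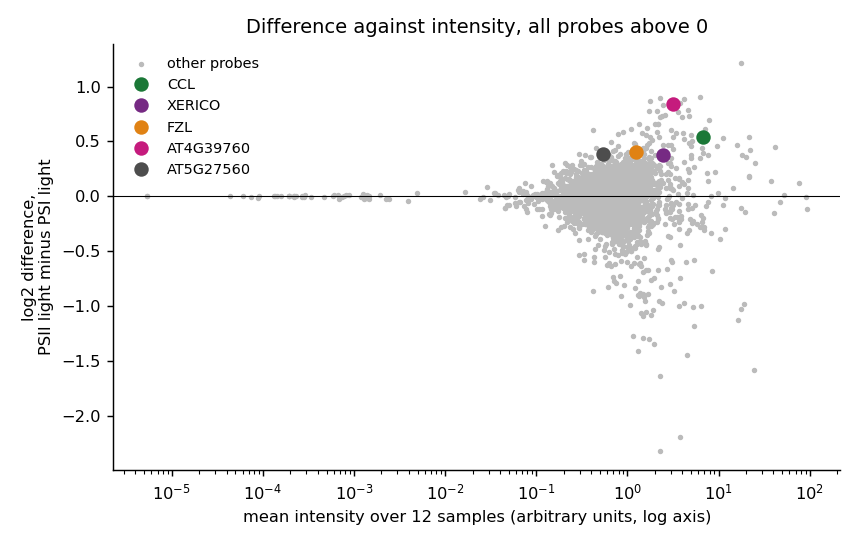
Log2 difference (PSII light minus PSI light) against mean intensity over the 12 samples (log axis) for all probes with a mean above 0, with the 5 genes coloured. All 5 lie in the upper part of the cloud, CCL towards the bright end and AT5G27560 among probes of middle brightness.

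Single-gene probes of like brightness did not share a direction around most of these genes. The 3 next brighter and 3 next dimmer probes around CCL ran from -2.20 (AT4G35660) to 0.70 (AT3G13150) on the log2 scale, with 3 of 6 above 0. Around XERICO they ran from -0.82, at PSB27, a photosystem II assembly protein, to 0.31 (AT3G09080). Around FZL they ran from -0.47 (MAMI) to 0.24 (AT5G06930), and PPDK, the pyruvate orthophosphate dikinase, was at 0.18. The 6 around AT4G39760 had 5 values above 0, up to 0.43 (AT2G33180), and the 6 around AT5G27560 were all above 0, up to 0.33 (AT5G64150). Of these 30 neighbours, AT4G35660 (adjusted p = 0.00248) and PSB27 (adjusted p = 0.0339) passed limma's test with Benjamini-Hochberg adjustment, both lower in PSII light. Leaving out a replicate ended the call of PSB27 5 times in 6, PSI-light replicate 2 being the exception, with an adjusted p of up to 0.125 (limma, Benjamini-Hochberg). It also ended without an intensity trend (adjusted p = 0.0544), while AT4G35660 kept its call under each alternative. The probes numbered next to the 5 genes, where the table held them, were dimmer than their gene except beside AT5G27560. Probe 2654 next to CCL had a log2 difference of -0.04, probe 665 next to XERICO -0.04, AT1G73090 next to FZL 0.01, probes 2445 and 2447 around AT4G39760 0.03 and 0.05, and AT5G41960 next to AT5G27560 -0.09. None of these 6 passed limma's test, the lowest adjusted p being 0.577 (Benjamini-Hochberg).

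By the pattern over all 12 samples, AT1G50880 was the single-gene probe most like CCL (r = 0.95), XERICO (r = 0.96) and AT4G39760 (r = 0.96), and the third most like FZL (r = 0.90), out of 648 candidates. Its log2 difference was 0.48 ± 0.10 (SE; adjusted p = 0.0602 by limma with Benjamini-Hochberg), and it was called under 7 of 16 alternatives, with an adjusted p between 0.00037 and 0.185. AT3G19810 came next for both CCL (r = 0.94) and XERICO (r = 0.94). The third was AT5G52960 for CCL (r = 0.92) and AT5G02050 for XERICO (r = 0.92). For FZL the most alike were CSLA01, a cellulose synthase-like protein (r = 0.92), and AT5G02050 (r = 0.92). AT4G39760 was followed by AT5G58330, the NADP-dependent malate dehydrogenase, an enzyme that exports reducing power from the chloroplast (r = 0.93), and AT4G29890 (r = 0.92). AT5G27560 had a set of its own, AT4G21170 (r = 0.94), AT3G20490 (r = 0.93) and PSBW, a small subunit of photosystem II (r = 0.93). The regime difference enters these values, and a probe with a similar difference scores high for that alone.

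With the regime means removed, other genes came forward. AT4G32060 was the most like CCL (r = 0.88) and the second most like XERICO (r = 0.85), while its own log2 difference between regimes was 0.09 ± 0.09 (SE; adjusted p = 0.595 by limma with Benjamini-Hochberg). AT1G50880 was again the first for XERICO (r = 0.85). The next for CCL were GH9B12, a glycosyl hydrolase (r = 0.85), and AT1G11800 (r = 0.85). FZL was closest to AT3G04500 (r = 0.91), AT5G38360 (r = 0.91) and AT5G56070 (r = 0.86), and AT5G38360 was also the third for XERICO (r = 0.82). AT4G39760 was closest to NdhS, a subunit of the plastid NADH dehydrogenase-like complex (r = 0.88), followed by AT1G16080 (r = 0.77) and AT4G29890 (r = 0.75). AT5G27560 was closest to AT4G22490 (r = 0.81), GH9B16 (r = 0.79) and AT3G51930 (r = 0.78). These correlations are descriptions over 12 samples that share arrays and normalization. The genes named were picked as the highest of 648 candidates, so a high r was to be found for any probe. Over all pairs of these candidates the 95th percentile of r was 0.67.

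Few other genes of the pathways around these 5 could be read on this array. Lists of 142 genes were set for the circadian clock, photoreceptors and light signalling, abscisic acid synthesis and breakdown, abscisic acid perception and response, gibberellin signalling, thylakoid shaping and lipids, thylakoid protein targeting and plastid division. Of these, 2 had a probe of their own, RVE6 and RIQ2. Probes annotated to several genes listed 7 among their genes, and such probes cannot be read for a single gene. The test called 0 of these 2 in either direction, where 3.14% of all probes were called (limma, Benjamini-Hochberg), and 0 had an unadjusted p under 0.05. No gene of the light signalling, abscisic acid, gibberellin, protein targeting or plastid division lists had a probe of its own, so XERICO could not be set beside its hormone pathway.

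RVE6, a MYB-like transcription factor of the clock, was dim in both regimes. It read 0.256, 0.323, 0.263, 0.285, 0.281 and 0.251 in PSII-light samples 1 to 6, against 0.223, 0.277, 0.258, 0.267, 0.257 and 0.315 in PSI light. The samples overlapped widely, and the log2 difference was -0.01 ± 0.05 (SE; adjusted p = 0.930 by limma with Benjamini-Hochberg). Its sign was not stable, the difference being 0.033 on values as deposited. RIQ2, a thylakoid protein that affects grana stacking and the organization of the light-harvesting complexes, averaged 0.438 ± 0.0557 in PSII light and 0.394 ± 0.0528 in PSI light (SD, n = 3 each). Its replicates overlapped between regimes too, and the log2 difference was 0.04 ± 0.08 (SE; adjusted p = 0.822 by limma with Benjamini-Hochberg). For these neighbours of CCL and FZL in function a difference was not detectable at this precision.

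The markers of green leaf cells, set down to check the material, had 3 measured genes, of which 0 were called by limma with Benjamini-Hochberg and 1, PSBW, had an unadjusted p under 0.05, as did 22.3% of all probes. PSBW differed by 0.38 ± 0.12 on the log2 scale (SE; adjusted p = 0.145 by limma with Benjamini-Hochberg), and PRK, the phosphoribulokinase of the Calvin cycle, one of 0.31 ± 0.16 (SE; adjusted p = 0.320). PSAN, a lumenal subunit of photosystem I, had 0.11 ± 0.06 (SE; adjusted p = 0.323). The median of the 3 was 0.31, against 0.01 over all probes, and it depended on the processing. It was 0.17 with median centring, which gave PSBW 0.17 and PSAN 0.033. With 10 times the pseudocount it was 0.11, which gave PRK 0.11, and without PSII-light replicate 2 it was 0.18, which gave PRK 0.18. Higher medians came without PSII-light replicate 1 (0.39) and without PSI-light replicate 3 (0.40). All 3 leaf markers differed in the same direction as CCL, XERICO, FZL, AT4G39760 and AT5G27560, and their part in those differences was not tested.

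The sign of the difference was positive for all 5 genes under every way of processing that was tried. The genes had been chosen for this sign on the values as deposited, so it was largely fixed in advance. Dropping the dimmest probes, a replicate block, a random block or separate samples left each estimate as it was and changed only its error. Because the regimes do not overlap by replicate mean, leaving out a replicate could not turn the sign. CCL lay between 0.45 and 0.64 on the log2 scale when a replicate was left out, XERICO between 0.32 and 0.47, FZL between 0.32 and 0.52, AT4G39760 between 0.76 and 0.95 and AT5G27560 between 0.37 and 0.43. The upper end came without PSI-light replicate 2 for the first 4 genes and without PSII-light replicate 2 for AT5G27560. A pseudocount 10 times as large lowered all 5, CCL to 0.43, XERICO to 0.23, FZL to 0.18, AT4G39760 to 0.54 and AT5G27560 to 0.12.

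**Figure D5:**
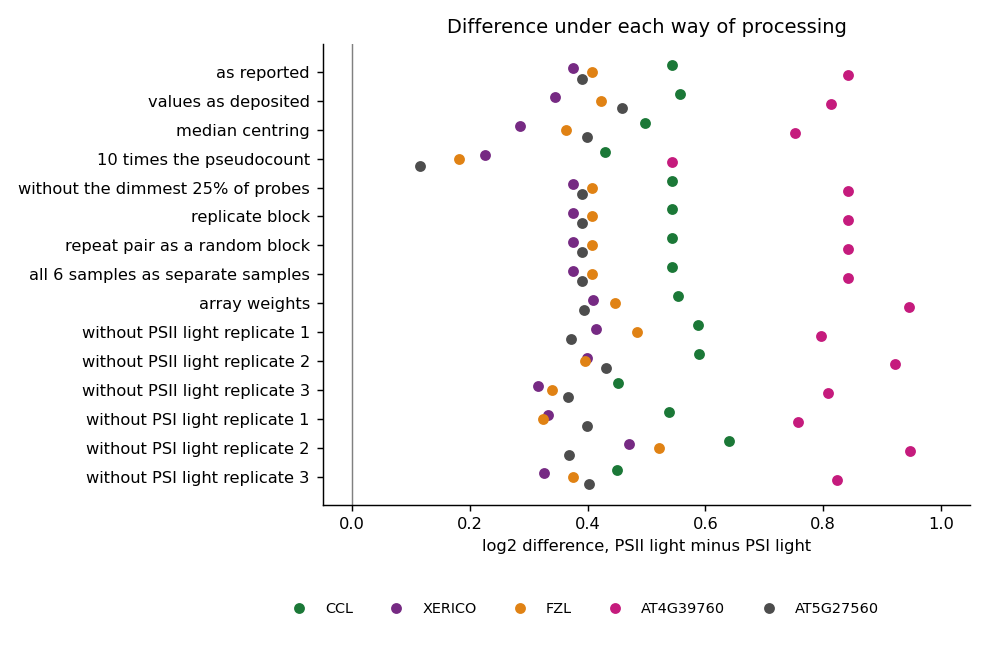
Log2 difference (PSII light minus PSI light) of the 5 genes as reported and under each alternative, 1 row per way of processing. Every point lies above 0, which the choice of the genes largely fixed in advance. With the larger pseudocount all 5 lie further to the left, AT5G27560 the lowest at 0.12.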

How the data were processed

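Each probe had a deposited intensity in every sample, linear and between 0 and just under 100; the authors' background correction and normalization, the array type and the probe sequences are not given in the sources used here. A pseudocount of 0.193 (the 5th percentile of values above 0) was added to intensities before taking log2, and samples were quantile normalized. Samples 1 and 2, 3 and 4, and 5 and 6 of a regime were averaged as repeats, because each correlated with its partner by over 0.2 more than with any other sample; the smallest gap was 0.559. Means and SDs of intensities use values as deposited.

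The regimes were compared with limma 3.58.1 in R 4.3.3 (lmFit and eBayes with trend, two-sided), all 3439 probes entering the Benjamini-Hochberg adjustment, at a threshold of 0.05. The fit was also tried on simulated data with independent replicates, which lack the shared deviations described next. Same-numbered replicates deviated together across regimes over all probes, with correlations of 0.323, 0.366 and 0.360. That the numbers pair the samples across regimes is inferred from this, as no label states it. The chosen genes were mixed. AT5G27560 deviated in the same direction in both regimes at each replicate, and AT4G39760 in opposite directions at each replicate. CCL and XERICO deviated in opposite directions at replicates 2 and 3, and FZL at replicate 3. The main fit has no block and the replicate block is an alternative. Figures were drawn with matplotlib 3.10.9.

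Probes were named from a platform annotation of older date, 690 of 692 single-gene probes being matched to the TAIR10.1 gene table, which holds no gene descriptions and in which a search for F-box, kelch and RING proteins found 0. Coordinates were not used. Genes named beside the 5 are, for each, the 3 single-gene probes of most similar pattern over the 12 samples by each measure, the 3 next brighter and dimmer, the probes numbered next to it, and the listed genes with a probe. The 5 genes, the lists and the alternatives were chosen with earlier results of these data known.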

Additional observations from a re-analysis of the deposited data

Results flagged for a closer look

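In FZL, PSII-light sample 6 stood apart at an intensity of 1.75, against 1.46 for the next highest of the 6 PSII-light samples. Its gap took up 0.643 of the range of the group, above Dixon's critical value of 0.625 for 6 samples. Sample 5, its repeat measurement, read 1.43. Without sample 6, a setting chosen after seeing the data, the log2 difference of FZL was 0.36 (PSII light minus PSI light), against 0.41 with it. This check was made on 5 genes in 2 regimes, and chance flags about 1 in 20 groups. The 6 samples were taken as repeats in pairs, an inference from the values; if that holds, the check treats them as more independent than they are.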

How the results depend on the processing

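For these changes the cause was not tested, though leaving out a replicate leaves fewer samples. The count of 108 called probes (26 higher and 82 lower in PSII light) became 228 with median centring, also 228 when the dimmest 25% of probes were dropped, 173 with robust eBayes, 232 with array weights, 365 with repeats as a random block and 916 with all 6 samples taken as separate. It was 92 on values as deposited and 103 with the replicate block, and 20 to 140 when a replicate was left out. Of the 5 genes, 2 were among the probes called higher; this was 1 with the replicate block, 3 with array weights (CCL added), 4 with the random block, 5 with all 6 as separate samples and 0 to 2 when a replicate was left out. Of the listed genes, 0 were called; it was 1, PSBW, with the random block and with 6 separate samples (limma with Benjamini-Hochberg, adjusted p = 0.0148 and 0.00135). The replicate block changed no call on the listed genes. AT5G27560 had a log2 difference of 0.46 on values as deposited, and with 10 times the pseudocount XERICO had 0.23, FZL 0.18, AT4G39760 0.54 and AT5G27560 0.12. RVE6 turned to 0.033 on values as deposited and 0.0025 with array weights, and ran from -0.043 to 0.043 when a replicate was left out. RIQ2 ran from -0.013 to 0.0995 when a replicate was left out, turning without PSII-light replicate 3 and without PSI-light replicate 3 (-0.0037). Precision is limited by 3 replicates per regime, and the dim probes of RVE6, RIQ2 and AT5G27560 lie near the pseudocount.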
